A study of Homo sapiens with 9 samples.

Results

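The INK4 inhibitors, the D cyclins, their kinases and the RB proteins form the switch that holds a cell in G1 or lets it enter S phase. The messenger RNAs of 10 genes of this switch were followed in SKMEL28 melanoma cells: CDKN2A, CDKN2B, CDKN2C, CDKN2D, CDK4, CDK6, CCND1, CCND3, RB1 and RBL2. They were taken by gene symbol from 48162 genes of the deposited tables, and each symbol matched 1 gene. All 10 passed the filter on low counts, with 15776 genes tested in all.

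SKMEL28 is an established human melanoma cell line. All cells were cultured in DMEM with 5% FBS and carried lentiviral short hairpin RNA, selected with puromycin at 1 µg/ml for 3 days. shCont cells received a hairpin against GFP, shp16 cells a hairpin against p16, and shp16+shATR cells hairpins against p16 and ATR, with 3 libraries per group and 9 in all. No group received the ATR hairpin without the p16 hairpin. The sample titles do not show whether shp16 cells also received a control hairpin. If they did not, effects of ATR knockdown and of carrying a second hairpin cannot be told apart. The study describes sequencing as its RNA method, and a legend on LSS mRNA speaks of technical replicates of 1 experiment, although it does not name the sequencing. No source used here gives separate cultures or infections, so the p-values below measure only the spread between these libraries, which may be technical. Which ATR hairpin was used for sequencing is not given in the sources used here.

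In G1, a D cyclin binds CDK4 or CDK6 and the pair phosphorylates RB and its relatives p107 and p130. Unphosphorylated RB proteins hold E2F transcription factors and so keep S phase genes silent, while phosphorylation releases them. The INK4 proteins p16, p15, p18 and p19 bind CDK4 and CDK6 directly and prevent the pairing with cyclin D. CDKN2A, which encodes p16 and, from another first exon, the p53 regulator ARF, is among the genes most often lost in melanoma.

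Library totals ranged from 17314662 to 23588174 counts and overlapped between the groups. In every pair of replicates the counts differed by more than sampling noise, with a chi-square per degree of freedom from 1.93 to 81.3. A library of shCont and a library of shp16 stood apart from their groups. Replicate 1 of shCont had values of 66.8 and 81.3 against the other shCont libraries, which had 5.03 between them, and replicate 1 of shp16 had 36.3 and 35.6 against 1.93. The melanocyte markers MITF, SOX10, PMEL, MLANA, TYR, DCT, TYRP1 and S100B summed to between 4840 and 5460 FPKM in shCont, 2560 and 4760 in shp16, and between 4010 and 4930 in shp16+shATR. PMEL was the largest part of this sum, at 1109 FPKM in shp16 replicate 1 and 2245 to 3490 FPKM in the other libraries. In shp16 against shCont the log2 fold changes of MITF, SOX10 and MLANA were 0.09, 0.03 and 0.08. Those of the other melanocyte markers were −0.68 to −0.05. Of 6 markers of leukocytes, endothelium and epithelia with a row (PECAM1 was not analysed here), PTPRC and CD3E had 0 counts in all libraries, and the 6 summed to between 0.255 and 0.464 FPKM in shCont, 2.40 and 2.85 in shp16, and between 1.35 and 2.87 in shp16+shATR. That difference lay in the keratins KRT5, with 0 counts in the shCont libraries and 7 to 63 in the other libraries, and KRT14, with 0 to 3 and 22 to 57. The keratin signal therefore differed between shCont and both groups with the p16 hairpin, and its part in the results below was not tested.

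Members of the switch moved in both directions in each comparison. In shp16 against shCont, edgeR's quasi-likelihood test called 3 of 10 members higher (CDKN2B, CDK4 and CDK6), where 7.23% of all genes tested were called higher, and 1 lower (CCND1), where 7.59% were called lower. In shp16+shATR against shp16 it called 1 higher (CCND1), against 2.73% of all genes, and 1 lower (CCND3), against 3.49%. In shp16+shATR against shCont it called 2 higher (CDKN2B and CDK6), against 10.9%, and 2 lower (CDKN2A and CCND3), against 12.7%. A call is an adjusted p under 0.05 (Benjamini-Hochberg over all genes tested). Over the 10 members, the median log2 fold change was 0.056, −0.15 and −0.17 in the 3 comparisons, and that of all genes −0.016, 0.0021 and −0.018. The comparisons share libraries, so their values are given side by side and were not related to each other.

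The calls depended on single libraries. Without shCont replicate 1, 4 members were called higher and 1 lower in shp16 against shCont, while 2 and 4 were in shp16+shATR against shp16, and 3 and 3 in shp16+shATR against shCont. Calls over all genes rose as well without shCont replicate 1, to 2170 higher and 2022 lower, 1447 and 1776, and 2569 and 2826 in the same order. Without shp16 replicate 1, the first comparison called 1 higher and 1 lower. In the second, no member was called by edgeR without shp16 replicate 2 or without any 1 of the shp16+shATR libraries, and 1 was called lower without shp16 replicate 3. In the third, 1 member was called higher and 0 lower without any 1 of the shp16+shATR libraries. Calls over all genes fell as well in these settings. Without shp16 replicate 1 they were 735 higher and 720 lower in the first comparison. In the second they were 149 and 242 without shp16 replicate 2, and 153 and 242 without shp16 replicate 3. Without a library of shp16+shATR they were 124 to 167 and 167 to 205 in the second, and 1106 to 1174 and 1227 to 1254 in the third. Scaling moved the split of all genes, from 1141 higher and 1198 lower to 922 and 1475 under upper-quartile normalization in the first comparison, and from 430 and 551 to 533 and 451 in the second.

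**Figure D1:**
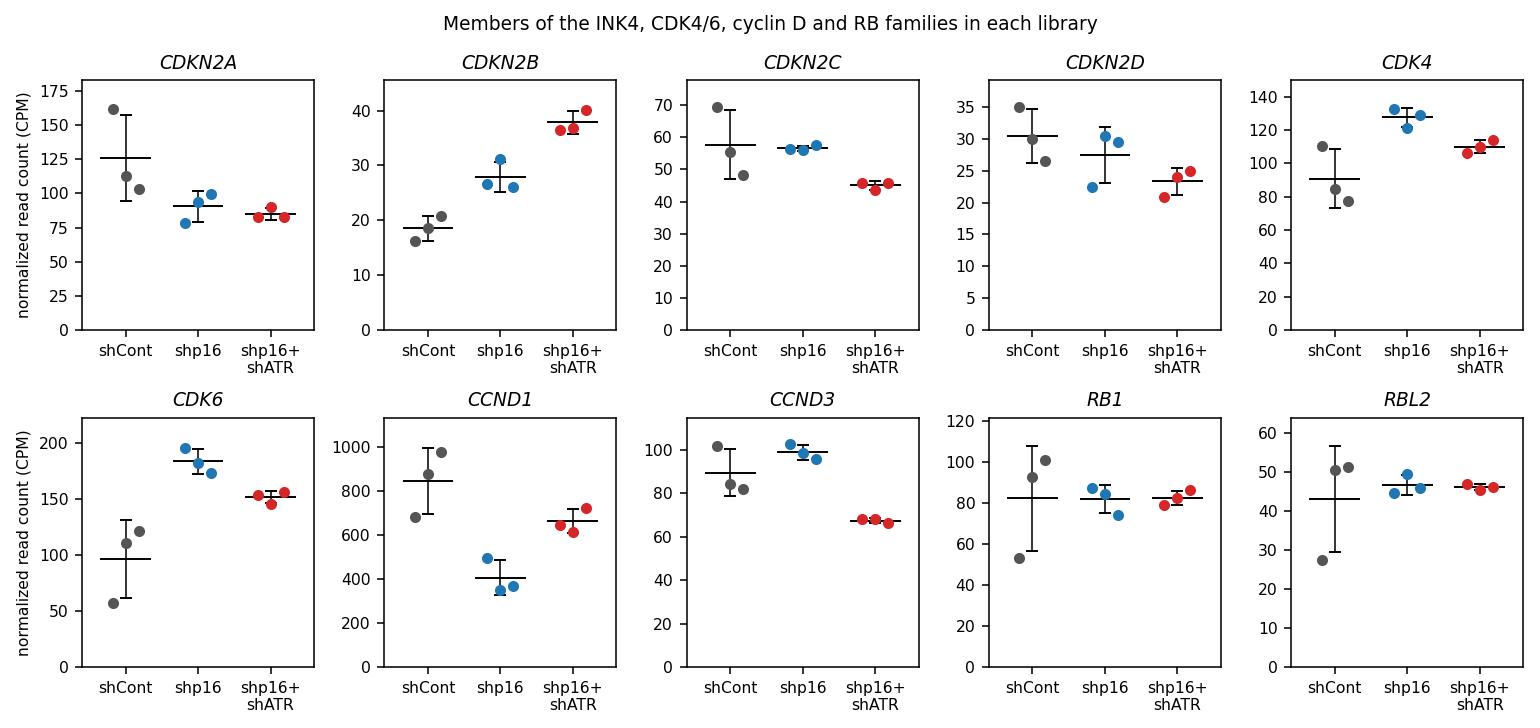
Normalized read counts of the 10 members, in CPM scaled by edgeR's TMM method, with 1 point per library (replicates from left to right), the group mean as a line and the SD as a bar. CCND1 was lowest in shp16, at 353 to 498 CPM, CDKN2B was highest in shp16+shATR, at 36.5 to 40.2 CPM, and shCont replicate 1 lay apart for CDK6, RB1 and RBL2.

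CDKN2A, the gene that the p16 hairpin targets, is on chromosome 9, minus strand, from 21967751 to 21995300 in the deposited coordinates, which are not those of GRCh38 and have the numbering of GRCh37. Its normalized read counts were 162, 112.5 and 103 CPM in shCont replicates 1, 2 and 3, and 78.1, 93.5 and 99.9 CPM in shp16. The 3 shp16+shATR libraries, called a, b and c, had 82.6, 90.0 and 82.4 CPM. Each shp16 library lay below each shCont library, although the highest shp16 library was close to the lowest shCont library, and shp16+shATR overlapped with shp16. The group means were 126 ± 31.7, 90.5 ± 11.2 and 85.0 ± 4.34 CPM (SD, n = 3 each). In shp16 against shCont the log2 fold change was −0.48 (SE, standard error, 0.163) with an edgeR adjusted p of 0.0723, which did not pass the threshold. It passed in 3 of 18 alternatives, with adjusted p from 0.0145 to 0.222 and log2 fold changes from −0.60 to −0.26. The value nearest 0 was that without shCont replicate 1, −0.26 (adjusted p = 0.0681). Against shCont, CDKN2A fell by 0.57 on the log2 scale in shp16+shATR (SE 0.163, edgeR adjusted p = 0.0263), and this call was lost without any 1 of the shp16+shATR libraries (adjusted p 0.0626 to 0.0923), with the replicate number as a block (0.0517) and with only these 2 groups in the fit (0.051). Leaving out shCont replicate 1 gave −0.35, still past the threshold (adjusted p = 0.0154). From shp16 to shp16+shATR the log2 fold change was −0.09 (adjusted p = 0.820).

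The counts are per gene, so they do not separate the p16 transcript from the ARF transcript of CDKN2A. They measure messenger RNA, and the p16 protein was not measured in these files. In bulk libraries fewer cells with a transcript and less of it per cell cannot be told apart. ATR, the other gene targeted, had 45.9, 93.5 and 96.4 CPM in shCont, 93.5, 83.4 and 85.6 CPM in shp16, and 39.9, 39.98 and 41.0 CPM in shp16+shATR. Its level in shCont replicate 1 was thus near that of the ATR knockdown libraries and apart from the other control libraries. That library was also apart for other genes. It had the lowest CDK6, RB1 and RBL2 levels of all libraries (57.2, 53.2 and 27.4 CPM) and the highest CDKN2A level (162 CPM).

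CDKN2B, which encodes p15 and is best known as a target of TGF-beta, lies next to CDKN2A from 22002902 to 22009362 on the same strand. Its change had the opposite sign. Its counts were 16.3, 18.6 and 20.8 CPM in shCont, 26.7, 31.1 and 26.1 CPM in shp16, and 36.5, 36.8 and 40.2 CPM in shp16+shATR. The 3 groups did not overlap and stood in that order. CDKN2B rose in shp16 against shCont by 0.59 on the log2 scale (SE 0.125, edgeR adjusted p = 0.00882), or 1.51-fold, and in shp16+shATR against shCont by 1.03 (SE 0.125, adjusted p = 0.000163), or 2.04-fold. Both calls held in 18 of 18 alternatives. From shp16 to shp16+shATR it was 0.44 higher on the log2 scale (SE 0.123, edgeR adjusted p = 0.0589), just outside the threshold. It passed without shCont replicate 1 (adjusted p = 0.00484), and over all alternatives the adjusted p ran from 0.00484 to 0.213.

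The 9p21 locus also holds the antisense RNA CDKN2B-AS1 on the opposite strand of both genes. Whether strand was used in counting is not given in the sources used here, and without strand the reads of overlapping transcripts cannot be told apart. CDKN2B-AS1 had 10 to 44 counts per library, in all 3.87% of the counts of CDKN2B and 1.07% of those of CDKN2A. Of the neighbours, MTAP, which salvages methionine and is often deleted together with CDKN2A, rose in shp16 against shCont by 0.94 on the log2 scale (SE 0.117, edgeR adjusted p = 0.000314) and in shp16+shATR against shCont by 0.62 (adjusted p = 0.00257). DMRTA1, a gene of the doublesex family, rose in shp16+shATR against shp16 by 0.79 (adjusted p = 0.0328) and against shCont by 0.83 (adjusted p = 0.00854). The 3 genes adjoining the pair thus held 1, 1 and 2 calls higher in the 3 comparisons and 0 lower by edgeR, with 0, 1 and 0 lower at an unadjusted p under 0.05 and 0 lower by DESeq2.

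Promoter sequences were read from RefSeq (GRCh38.p14), from 250 bases before to 50 after each annotated start, for 9 of the 10 members, with 16 starts between them. CCND1 had no entry. The only RB1 window lies at chr13:48476200-48476499, and whether it holds the main start of RB1 was not tested. They are shown for CDKN2A and CDKN2B, the adjoining genes that moved in opposite directions between shp16+shATR and shCont, and for CDK6, each cut before the first base annotated as exon of that gene by GENCODE. Capitals mark the GC box GGGCGG, the element bound by SP1-type factors, on either strand. The CDKN2A stretch is that of the ARF start at chr9:21995325-21995574 and holds none of the motifs searched, while the window of the other CDKN2A start, chr9:21974808-21975107, lies mostly in annotated exon, is not printed and holds 2 GC boxes, at −37 and 13. The CDKN2B stretch is at chr9:22009364-22009555, and the CDK6 stretch is at chr7:92836595-92836823, all on the minus strand and written 5′ to 3′.
CDKN2A: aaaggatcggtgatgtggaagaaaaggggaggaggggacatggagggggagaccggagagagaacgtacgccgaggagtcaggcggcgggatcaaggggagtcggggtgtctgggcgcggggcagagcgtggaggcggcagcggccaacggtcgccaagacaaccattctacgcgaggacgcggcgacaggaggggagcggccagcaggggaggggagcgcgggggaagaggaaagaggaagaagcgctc
CDKN2B: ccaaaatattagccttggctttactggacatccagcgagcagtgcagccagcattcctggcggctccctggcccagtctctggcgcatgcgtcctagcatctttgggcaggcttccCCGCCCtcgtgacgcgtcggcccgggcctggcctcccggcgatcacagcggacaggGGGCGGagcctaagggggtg
CDK6: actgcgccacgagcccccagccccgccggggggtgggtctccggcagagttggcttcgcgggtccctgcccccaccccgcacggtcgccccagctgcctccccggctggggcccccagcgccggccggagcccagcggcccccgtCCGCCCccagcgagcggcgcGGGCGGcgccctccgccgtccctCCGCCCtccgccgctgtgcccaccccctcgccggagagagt
CDKN2B held 2 GC boxes, at −134 and −78 from the start, and CDK6 held 3, at −105, −85 and −62. No match in these stretches overlapped another. Of all 34796 promoter windows, 44.9% held a GC box, and 10 of the 16 windows of the members did. The E2F site, searched on both strands as TTT followed by CC, GG, CG or GC and then CGC, was in 0 of the 16 windows and in 3.30% of all windows. No match says only that these letters are not in this stretch, and the main promoter of a member, such as RB1, may lie outside the windows read.

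CDKN2C and CDKN2D, which encode p18 and p19, moved less. CDKN2C, on chromosome 1 (plus strand, 51426417 to 51440305), had 69.4, 55.3 and 48.3 CPM in shCont, 56.3, 56.0 and 57.5 CPM in shp16, and 45.8, 43.5 and 45.9 CPM in shp16+shATR. The shp16 libraries lay within the range of shCont, and the shp16+shATR libraries lay below both groups. Its log2 fold change was −0.33 in shp16+shATR against shp16 (edgeR adjusted p = 0.170) and −0.36 against shCont (adjusted p = 0.0653), neither past the threshold. Without shCont replicate 1 the former passed (−0.33, adjusted p = 0.0066), and without shCont replicate 3 the latter did (−0.47, adjusted p = 0.0183). The latter was −0.21 when shCont replicate 1 was left out (adjusted p = 0.0639). CDKN2D, on chromosome 19 (minus strand, 10677138 to 10679735), ranged from 26.6 to 34.9 CPM in shCont, 22.4 to 30.4 CPM in shp16, and 20.9 to 25.0 CPM in shp16+shATR, with overlap between shp16 and either other group. Its largest log2 fold change was −0.38 in shp16+shATR against shCont (SE 0.149, edgeR adjusted p = 0.0829), which passed without shCont replicate 3 (−0.47, adjusted p = 0.0490) and was −0.28 without shCont replicate 1 (adjusted p = 0.13).

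Both kinases of the D cyclins were higher in shp16 than in shCont. CDK6, on chromosome 7 (minus strand, 92234235 to 92465908), had 57.2, 111 and 122 CPM in shCont, 196, 183 and 173 CPM in shp16, and 154, 145.5 and 157 CPM in shp16+shATR. Every shCont library lay below every library of the other groups, and shCont replicate 1 was far below the other shCont libraries. CDK6 rose in shp16 against shCont by 0.93 on the log2 scale (SE 0.215, edgeR adjusted p = 0.0148), or 1.90-fold. Without shCont replicate 1 the log2 fold change was 0.65 and still past the threshold (adjusted p = 0.00016), and with shp16 replicate 1 left out it was 0.88 and not past it (adjusted p = 0.0576). With only these 2 groups in the fit the adjusted p was 0.0542. In shp16+shATR against shCont CDK6 rose by 0.65 (SE 0.215, edgeR adjusted p = 0.0461), a call close to the threshold that held in 6 of 18 alternatives. The log2 fold change was 0.38 without shCont replicate 1, still past the threshold (adjusted p = 0.00333). It was lost without shCont replicate 2 and without any 1 of the shp16 or shp16+shATR libraries (adjusted p 0.0515 to 0.122), and also with scaling by library size only, the replicate block, limma on FPKM and only these 2 groups in the fit.

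CDK4, the other partner of the D cyclins, is on chromosome 12, minus strand, from 58141510 to 58149796. It had 111, 84.6 and 77.4 CPM in shCont, 132, 122 and 129 CPM in shp16, and 106, 110 and 114 CPM in shp16+shATR. The shp16 libraries lay above all others, and the shp16+shATR libraries overlapped with shCont through its replicate 1. CDK4 rose in shp16 against shCont by 0.49 on the log2 scale (SE 0.130, edgeR adjusted p = 0.0276), or 1.40-fold. The call held in 9 of 18 alternatives. It was lost without shCont replicate 2 or 3, without any 1 of the shp16 libraries and without shp16+shATR library a or b (adjusted p up to 0.0901), and also with upper-quartile normalization (0.055) and with only these 2 groups in the fit (0.09). The value was larger without shCont replicate 1 (0.65, adjusted p = 0.000117). In shp16+shATR the log2 fold change was −0.21 against shp16 (adjusted p = 0.402) and 0.28 against shCont (adjusted p = 0.152). Both passed with shCont replicate 1 left out, at −0.21 (adjusted p = 0.0447) and 0.44 (adjusted p = 0.000983). The span of CDK4 overlaps TSPAN31 and a further gene (ENSG00000139266) on the opposite strand, which had 20.7% and 19.9% as many counts as CDK4, so its reads and theirs cannot be told apart where counting was unstranded. For CCND1, RB1 and RBL2 such partners (ORAOV1, LPAR6 and AKTIP) had 4.35%, 7.45% and 9.35% as many counts.

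CDK4 is known as a target of MYC, which binds the E-box CACGTG. The promoter window of CDK4 held 3 E-boxes, at −216, −196 and −101 from the start, where 7.20% of all windows held at least 1 and 4 of the 16 windows of the members did. The E-box reads the same on both strands. The stretch with the first pair, at chr12:57752501-57752526 on the minus strand, has the E-boxes in capitals. Unlike the stretches above it runs into annotated exon, since only the first 39 bases of this window precede the exon, and none of the 3 E-boxes lies wholly before it.
CDK4: CACGTGtgatagcaacagatCACGTG
The match is a description of the letters, and binding was not measured.

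Among the members, CCND1 had the largest log2 fold change in shp16 against shCont, except without shCont replicate 2 or 3, where CDK6 was ahead (1.04 and 1.13, with CCND1 at −1.03 and −0.94). CCND1, which encodes cyclin D1, a growth factor sensor downstream of ERK in melanoma, lies on chromosome 11 (plus strand, 69455855 to 69469242). It had 681, 878 and 977 CPM in shCont, 498, 353 and 367 CPM in shp16, and 648, 616 and 722 CPM in shp16+shATR. The shp16 libraries lay below all others, and the shp16+shATR libraries lay between, overlapping with shCont through its replicate 1. CCND1 fell in shp16 against shCont by 1.06 on the log2 scale (SE 0.166, edgeR adjusted p = 0.00146), or 2.08-fold, and the call held in 18 of 18 alternatives with log2 fold changes from −1.23 to −0.94.

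CCND1 was higher in shp16+shATR than in shp16, and the same shp16 libraries enter this value and the fall given above. In shp16+shATR against shp16 it rose by 0.70 on the log2 scale (SE 0.165, edgeR adjusted p = 0.0278), or 1.63-fold. The direction was the same in 18 of 18 alternatives, and 12 of them passed the threshold. The call was lost without shp16 replicate 2 or 3 and without any 1 of the shp16+shATR libraries, with log2 fold changes from 0.61 to 0.75 and adjusted p from 0.0839 to 0.124, and with the replicate number as a block (0.70, adjusted p = 0.0566). Against shCont the log2 fold change was −0.35 in shp16+shATR (SE 0.164, adjusted p = 0.145), and of the 18 alternatives it passed in 1, without shCont replicate 1 (−0.49, adjusted p = 0.0163).

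CCND3, which encodes cyclin D3, is on chromosome 6, minus strand, from 41902671 to 42018095. It had 102, 84.5 and 82.2 CPM in shCont, 103, 98.5 and 95.8 CPM in shp16, and 68.1, 68.4 and 66.2 CPM in shp16+shATR. The shp16+shATR libraries lay closely together below all others. CCND3 fell in shp16+shATR by 0.55 on the log2 scale against shp16 (SE 0.108, edgeR adjusted p = 0.0122) and by 0.41 against shCont (SE 0.108, adjusted p = 0.0180). The log2 fold changes stayed between −0.58 and −0.51 and between −0.47 and −0.31 over the alternatives. The calls were lost without any 1 of the shp16+shATR libraries (adjusted p 0.0683 to 0.0751 and 0.0643 to 0.0765) and, against shp16, without shp16 replicate 2 (adjusted p = 0.0539). In shp16 against shCont the log2 fold change was 0.15 (adjusted p = 0.399), and 0.24 without shCont replicate 1 (adjusted p = 0.0189). CCND2, the remaining D cyclin, had 0 of 183230471 counts over the 9 libraries, which allows up to 3 counts, or 0.0164 CPM, by counting error alone.

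The pocket proteins RB1 and RBL2 did not pass the test in any comparison. RB1, on chromosome 13 (plus strand, 48877887 to 49056122), had 53.2, 92.7 and 101 CPM in shCont, 87.3, 84.6 and 74.3 CPM in shp16, and 79.2, 82.5 and 86.3 CPM in shp16+shATR. Replicate 1 of shCont was far below all other libraries, and the other shCont libraries were above all of them. The log2 fold changes of RB1 were −0.0050, 0.011 and 0.0059 (standard error 0.192 each, adjusted p 0.985 to 0.990 from edgeR). Without shCont replicate 1 they were −0.25 for shp16 against shCont (adjusted p = 0.0512) and −0.23 for shp16+shATR against shCont (adjusted p = 0.0522), so that the value near 0 rested on that library. RBL2, which encodes p130, the pocket protein of quiescent cells, lies on chromosome 16 (plus strand, 53467889 to 53525561). It had 27.4, 50.4 and 51.3 CPM in shCont, 44.5 to 49.4 CPM in shp16, with 45.3 to 46.8 CPM in shp16+shATR. Its log2 fold changes were 0.12, −0.02 and 0.10 (adjusted p 0.731 to 0.977 from edgeR), and −0.13 and −0.15 against shCont without shCont replicate 1 (adjusted p = 0.209 and 0.141).

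**Figure D2:**
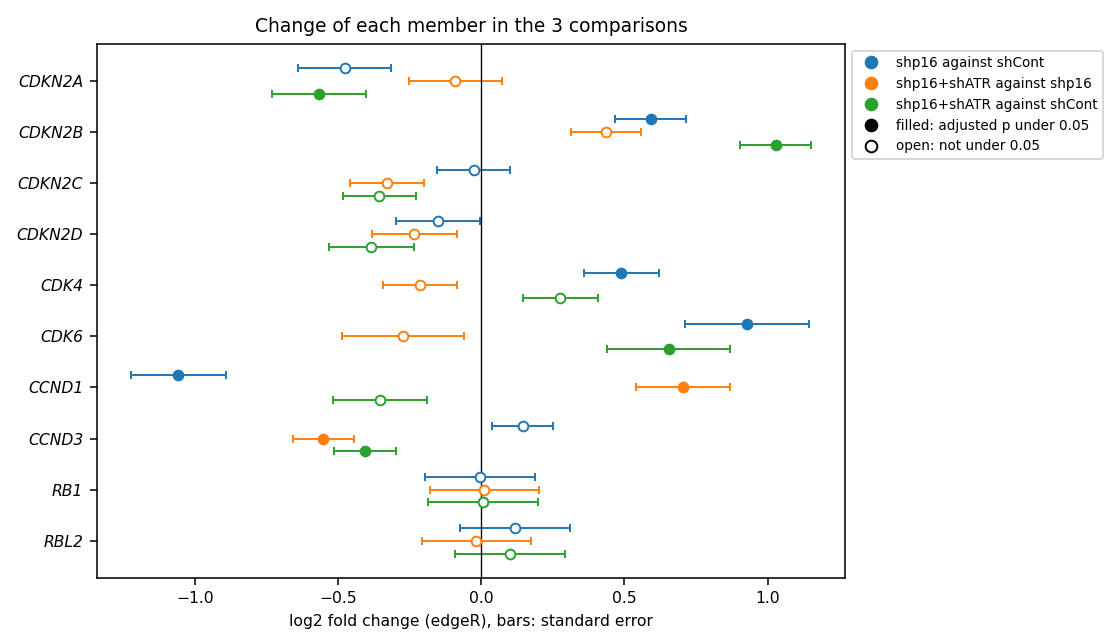
Log2 fold change of each member in the 3 comparisons (x axis), with the standard error from edgeR as a bar, filled where the adjusted p was under 0.05. CCND1 lay at −1.06 in shp16 against shCont and at 0.70 when shp16+shATR was set against shp16, and RB1 and RBL2 lay between −0.02 and 0.12 in all 3.

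Levels of different genes were compared in FPKM, the deposited read count scaled by gene length and library total. CCND1 was the highest member in each group, at 197 ± 40.4 FPKM in shCont, 93.3 ± 13.3 in shp16, with 154 ± 10.03 in shp16+shATR (SD, n = 3 each), and CDKN2A was the next. CDK4 followed, and its libraries overlapped with those of CDKN2A in shp16 and with those of CCND3 in shCont. CCND3 was the fourth in each group. CDKN2C, CDKN2D and RB1, at group means from 15.5 to 21.4 FPKM, took places 5 to 7 in each group, with overlapping ranges between neighbours. CDKN2B was the lowest in shCont, at 4.76 ± 0.706 FPKM, and in shp16, at 7.13 ± 0.920. In shp16+shATR, at 9.66 ± 0.386, it overlapped with RBL2, at 9.38 ± 0.171.

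Within each family the make-up was followed as a share of the summed FPKM, and groups of 3 were compared by two-sided exact permutation tests, which cannot go below p = 0.1. The 15 tests were adjusted together, and none passed. Here and in the ratio below, CDKN2A FPKM is per gene and so includes any ARF transcript. CDKN2A is also the gene that the p16 hairpin targets. CDKN2A made up 70.6, 66.2 and 66.4% of INK4 FPKM in shCont, 59.2, 60.0 and 62.2% in shp16, with 61.8, 62.9 and 59.5% in shp16+shATR. Both knockdown groups lay below shCont without overlap, with differences of −7.25 and −6.31 percentage points (exact permutation p = 0.1 each, adjusted p = 0.167). CDKN2B made up 3.44 ± 1.05% of INK4 FPKM in shCont, 6.17 ± 0.727% in shp16, with 8.97 ± 0.543% in shp16+shATR (SD, n = 3 each).

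Summed INK4 FPKM per summed CDK4 and CDK6 FPKM was 3.07, 2.64 and 2.53 in shCont, 1.27, 1.64 and 1.63 in shp16, with 1.61, 1.71 and 1.58 in shp16+shATR. The ratio was thus lower in all libraries with the p16 hairpin, with differences from shCont of −1.24 in shp16 and −1.11 in shp16+shATR (exact permutation p = 0.1 each, adjusted p = 0.167). The INK4 sum was 144 ± 25.4 FPKM in shCont and 116 ± 17.4 in shp16, with overlap, and the kinase sum was 52.1 ± 3.87 and 76.9 ± 1.79, without overlap (SD, n = 3 each). In shp16+shATR the sums were 108 ± 4.68 and 66.0 ± 1.33 FPKM. With shCont replicate 1 left out the ratio was still lower than in shCont, with differences of −1.07 and −0.952. On TMM-scaled CPM, which are not divided by gene length, the differences were −0.61 and −0.533. The ratio is of messenger RNA, and binding of INK4 proteins to either kinase was not measured in these files.

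CCND1 made up 78.8, 85.2 and 86.9% of D cyclin FPKM in shCont, 73.0, 66.6 and 68.1% in shp16, with 84.1, 83.4 and 85.8% in shp16+shATR. The shp16 libraries lay below both other groups, with a difference of −14.4 percentage points from shCont and of 15.2 between shp16+shATR and shp16 (exact permutation p = 0.1 each, adjusted p = 0.167). Between shp16+shATR and shCont the groups overlapped, with a difference of 0.799 (exact permutation p = 0.9), and of −1.62 without shCont replicate 1. Summed D cyclin FPKM per summed CDK4 and CDK6 FPKM was 4.56 ± 1.03 in shCont, 1.75 ± 0.187 in shp16, with 2.75 ± 0.114 in shp16+shATR (SD, n = 3 each).

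CDK4 was the larger part of CDK4 and CDK6 FPKM in all 9 libraries, at 91.6% in shCont replicate 1 and between 78.0 and 81.0% in the other 8, and no comparison separated the groups (exact permutation p 0.3 to 0.7). RB1 made up 48.9 to 49.5% of the FPKM of RB1, RBL1 and RBL2 in shCont, 44.8 to 47.8% in shp16, with 49.7 to 51.3% in shp16+shATR. The 3 groups did not overlap, and the differences were −2.53, 3.85 and 1.33 percentage points (exact permutation p = 0.1 each, adjusted p = 0.167). The share in shCont replicate 1 was like that of the other shCont libraries, although its summed level was the lowest. RBL1, which encodes p107, made up 21.6 ± 0.813% in shp16+shATR, 27.0 ± 1.75% in shp16 and 25.4 ± 1.14% in shCont (SD, n = 3 each), and its log2 fold change in shp16+shATR against shp16 was −0.42 (edgeR adjusted p = 0.220). With shCont replicate 1 left out, RBL1 was called lower by edgeR in shp16+shATR against shp16 and against shCont.

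**Figure D3:**
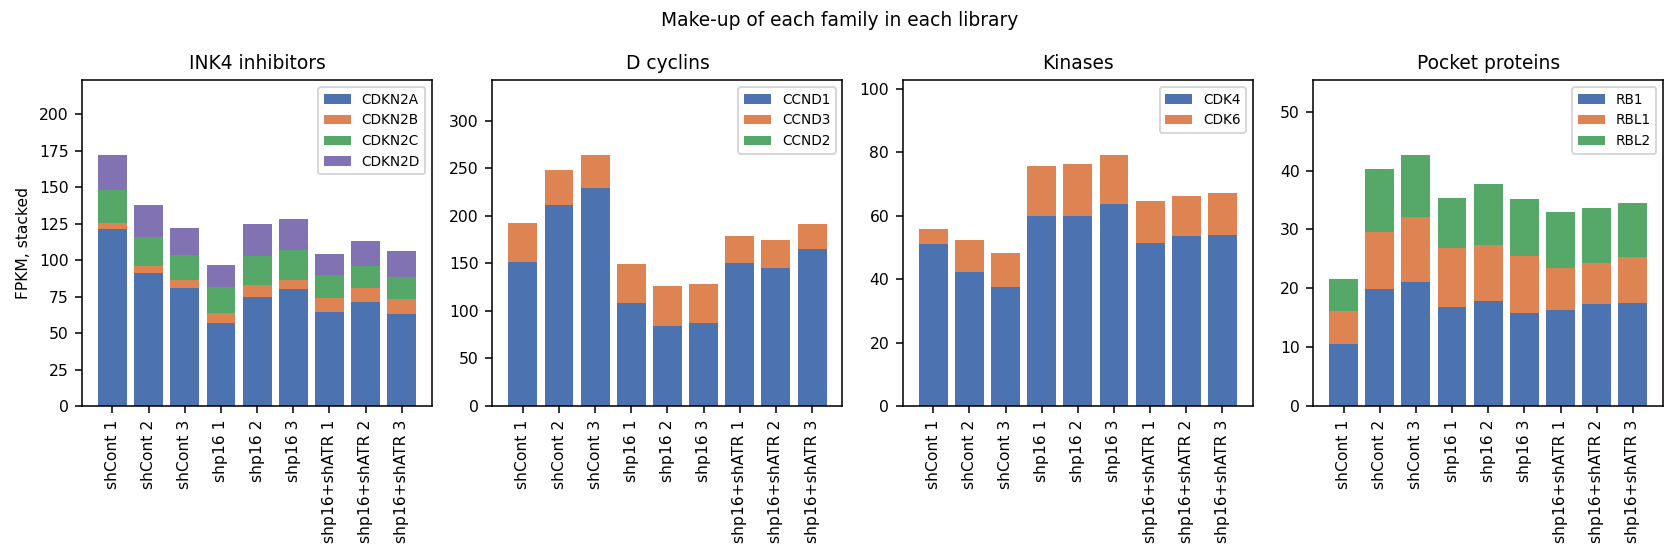
Stacked FPKM of each family by library (x axis), with 1 bar per library and 1 colour per gene, and CCND2 at 0. The CCND1 part was smallest in shp16, at 66.6 to 73.0% of D cyclin FPKM, the kinase bars were tallest in shp16, and the pocket protein bar of shCont replicate 1 was the lowest, at 21.6 FPKM.

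Around the switch, 48 other genes were tested, which are those of the pathway and the 3 neighbours at 9p21 given above. In shp16 against shCont 5 were called higher and 6 lower, in shp16+shATR against shp16 2 and 5, and in shp16+shATR against shCont 7 and 9, with the shares of all genes called as given above. The 9p21 neighbours hold 1, 1 and 2 of these calls higher and 0 of those lower. The CIP/KIP inhibitors, which bind cyclin-CDK pairs rather than the kinase alone, held 2, 1 and 3 calls higher of 3 genes and 0 lower (0 lower at an unadjusted p under 0.05 and by DESeq2). CDKN1B, which encodes p27, had 13.2, 17.0 and 15.1 FPKM in shCont, 17.7, 25.1 and 24.6 in shp16, with 32.4, 31.4 and 28.5 in shp16+shATR, and rose against shCont by 0.58 in shp16 (edgeR adjusted p = 0.00999) and 1.03 in shp16+shATR (adjusted p = 0.000159). CDKN1A, the p53 target that encodes p21, stood at 9.17 to 10.1, 8.79 to 11.6 and 18.7 to 20.1 FPKM. It rose by 0.91 in shp16+shATR against shp16 (SE 0.115, edgeR adjusted p = 0.0014) and by 1.01 against shCont (adjusted p = 9.99e-05). CDKN1C, which encodes p57, was at 0.598 to 1.73 FPKM and rose by 1.02 in shp16 and 0.90 in shp16+shATR against shCont (adjusted p = 0.0171 and 0.0204).

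Among the kinases and cyclins that act after cyclin D, 1, 0 and 0 of 8 genes were called higher and 1, 1 and 2 lower (0 higher in the comparisons of shp16+shATR at an unadjusted p under 0.05 and by DESeq2). CCNE1, which encodes cyclin E1, the partner of CDK2 at the start of S phase, fell against shCont by 0.48 in shp16 (edgeR adjusted p = 0.0241) and by 0.77 in shp16+shATR (adjusted p = 0.00119). CCNE2 fell by 0.75 in shp16+shATR against shCont (adjusted p = 0.0362). CCNA2, the S phase cyclin A2, rose by 0.44 in shp16 against shCont (adjusted p = 0.0334) and fell by 0.52 in shp16+shATR against shp16 (adjusted p = 0.0279). CDK7, the kinase that activates CDKs, had log2 fold changes of −0.31, −0.04 and −0.35 that did not pass the test.

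The E2F and DP genes encode the factors held by RB proteins and relatives, such as E2F7 and E2F8, that repress without them. They had 0 of 10 called higher and 2, 4 and 5 lower (1 higher at an unadjusted p under 0.05 in each comparison, and 0 higher by DESeq2). TFDP1, the DP partner of E2F proteins, fell in all 3 comparisons. It had 40.1, 43.7 and 44.2 FPKM in shCont, 30.9, 33.5 and 33.4 in shp16, with 17.4, 16.5 and 13.99 in shp16+shATR, with log2 fold changes of −0.38, −1.03 and −1.42 (standard error 0.102 to 0.104, adjusted p = 0.0275, 0.000375 and 4.67e-06 from edgeR). E2F4, the E2F that works mainly with p107 and p130, fell against shCont by 0.88 in shp16 (adjusted p = 0.00423) and by 1.12 in shp16+shATR (adjusted p = 0.000608). The activators E2F1 and E2F2 fell in shp16+shATR against shp16 by 0.62 and 0.67 (adjusted p = 0.0095 and 0.00388) and against shCont by 0.48 and 0.46 (adjusted p = 0.0104 and 0.00774). The remaining calls were E2F8 in the second comparison (−0.69) and TFDP2 in the third (−0.49), which are named after their values were seen. With shCont replicate 1 left out, 0, 1 and 1 genes were called higher and 2, 5 and 7 lower.

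Of 6 genes, MYBL2 and those of the DREAM core, through which p130 and p107 silence cell cycle genes in quiescence, 1, 0 and 0 were called higher and 1, 0 and 1 lower. LIN9 fell against shCont by 0.42 in shp16 (edgeR adjusted p = 0.0399) and by 0.62 in shp16+shATR (adjusted p = 0.0039), and RBBP4 rose by 0.39 in shp16 (adjusted p = 0.0404). MYBL2, which joins this complex in S phase, had log2 fold changes of 0.51, −0.54 and −0.03, none past the threshold, and LIN37 was low, at 0.0596 to 0.642 FPKM. Between shp16+shATR and shp16, 0 genes were higher and 1 lower at an unadjusted p under 0.05 and by DESeq2, and against shCont 1 was higher by either count.

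Of 6 genes for assembly and turnover of cyclin D, 0, 0 and 1 were called higher and 2, 0 and 1 lower. FBXO4, an adaptor of a ligase for cyclin D1, fell against shCont by 0.77 in shp16 (edgeR adjusted p = 0.00816) and by 1.15 in shp16+shATR (adjusted p = 0.000503). SERTAD1, which binds CDK4, fell by 0.90 in shp16 against shCont (adjusted p = 0.0276). AMBRA1, the adaptor of the main ligase for D cyclins, rose by 0.39 in shp16+shATR against shCont (adjusted p = 0.0352). CDC37, the HSP90 partner that folds CDK4, had log2 fold changes of −0.31, −0.09 and −0.40 that did not pass. At an unadjusted p under 0.05, 1 gene was higher and 1 lower once the ATR hairpin was added to shp16, and DESeq2 called 0. Between shp16 and shCont, 1 was higher on that count and 0 by DESeq2.

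Of the 3 catalytic genes of the phosphatase PP1, which dephosphorylates RB, PPP1CC rose in shp16+shATR against shCont by 0.34 (edgeR adjusted p = 0.0367), and no other call was made in the list (unadjusted p under 0.05 for 1 and 0 genes, higher, in the comparisons without a call, and 0 by DESeq2). PPP1CA and PPP1CB stayed between −0.20 and 0.14 on the log2 scale. The Polycomb and related repressors of the INK4 locus (BMI1, RNF2, CBX7, CBX8, EZH2, SUZ12, EED and KDM2B) had 0 of 8 genes called by edgeR in each comparison, with 1, 0 and 0 genes at an unadjusted p under 0.05 and 0 by DESeq2. Their log2 fold changes lay between −0.27 and 0.27.

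**Figure D4:**
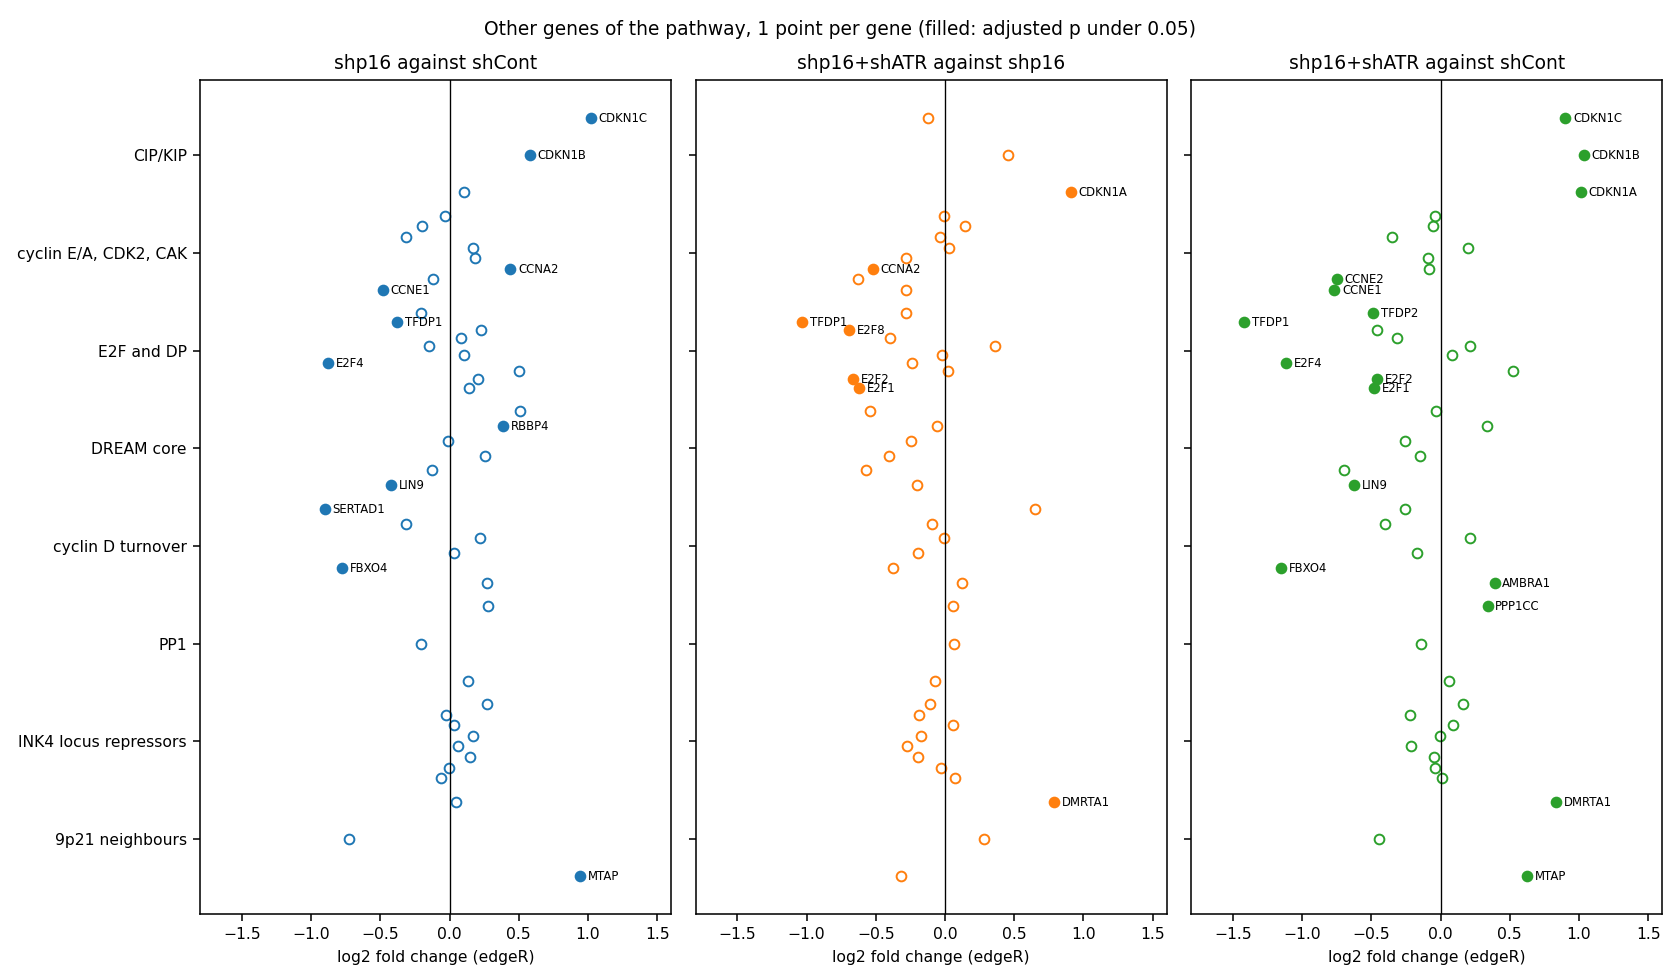
Log2 fold change from edgeR (x axis) of the other genes of the pathway, 1 point per gene and 1 row per list, filled and named where the adjusted p was under 0.05. CIP/KIP genes lay at 0.90 to 1.03 in shp16+shATR against shCont, TFDP1 lay at −1.42 there, and the INK4 locus repressors lay near 0 with 0 calls.

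The genes whose pattern over the 9 libraries was most like that of CDKN2A, among 9465 genes with a mean of at least 10 CPM, were CARD16 (Pearson r = 0.987 on log2 CPM), BCS1L (0.986), FAM160B2 (0.983), TCIRG1 (0.982) and HLA-DMA (0.979). Libraries of a group and the high value in shCont replicate 1 are shared by all of these genes. Over the 8 libraries without it, r was 0.940 to 0.993. These are descriptions of likeness over 9 libraries, with no test.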

How the data were processed

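RNA of 9 SKMEL28 libraries, 3 per group, was sequenced by Novogene from NEBNext Ultra 2 libraries. Raw counts of reads per gene (48162 genes, no normalization) and FPKM values, which are those counts scaled by gene length and library total, were deposited by the authors. The submitters' processing notes name STAR 2.6.1, DESeq2 and GRCh38, while the deposited coordinates are those of GRCh37, with 261 of 45342 shared genes at the same place as in GENCODE 29. The counting program is not given in the sources used here. For shp16+shATR, 1 column name stands over 3 columns of counts, and a, b and c denote them here. By their FPKM they are replicates 1, 2 and 3.

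Counts were normalized by TMM, filtered by filterByExpr and tested by quasi-likelihood (edgeR 4.0.16, R 4.3.3) in 1 fit of all 9 libraries, at a Benjamini-Hochberg adjusted p of 0.05. Shares of FPKM were compared with exact permutation tests (scipy 1.17.1). Library totals of 17314662 to 23588174 counts and a biological coefficient of variation of 0.149 set the precision. Alternatives were DESeq2 1.42.0, limma 3.58.1 on log2(FPKM + 1) or log2(FPKM + 0.1), other scalings and filters, a fit of 2 groups alone, the replicate number as block, an adjusted p of 0.01, and each library left out. Named genes are all members and ATR, and up to 4 per list, first those called in most comparisons and then those with the largest log2 fold change. The members and lists were chosen with earlier results of these data known.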

Additional observations from a re-analysis of the deposited data

How the results depend on the processing

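Over 540 recomputed log2 fold changes of members, 461 kept their direction and their side of the threshold, 41 were no longer past it, 18 came past it and 20 changed sign, and 101 of 105 recomputed shares and ratios kept their sign. At an adjusted p of 0.01, 994, 309 and 1974 genes and 2, 0 and 1 members were called in, respectively, shp16 against shCont and shp16+shATR against first shp16 and then shCont (at an unadjusted p under 0.05, 2 members were higher and 2 lower in the second). With only the 2 groups compared, 1186 and 2878 genes were called in the first 2 comparisons, and 2, 6 and 2 members. With each library left out in turn, 1344 to 4192, 292 to 3223 and 2354 to 5395 genes were called, and 2 to 5, 0 to 6 and 1 to 6 members. The highest count of genes in each comparison was the one without shCont replicate 1, and the cause was not tested.

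The replicate numbers showed no pairing of the libraries. Deviations of same-numbered libraries from their group means correlated between −0.15 and 0.168, and those of different-numbered libraries between −0.218 and 0.246. With 3 libraries per group, this does not show that a pairing was absent. With the replicate block, 612 genes were called in shp16+shATR against shp16, and 1 and 2 members in that comparison and against shCont. The members' calls lost under the block were CCND1 in the former and CDKN2A and CDK6 in the latter.

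Log2 fold changes that changed sign had sizes up to 0.17 in all settings but 1, RB1 in shp16+shATR against shCont without shCont replicate 1. For RB1 in shp16 against shCont, the log2 fold change was 0.0024 with DESeq2, 0.0095 with no filter, 0.030 with the block and 0.031 and 0.036 with limma (1 and 0.1 added), and −0.25 to 0.17 with libraries left out. For shp16+shATR relative to shp16, RB1 was at −0.0036 with no filter and −0.058 to 0.055 with libraries left out. In shp16+shATR against shCont it was −0.0095 with upper-quartile scaling, −0.0072 with library size only and −0.23 to 0.18 with libraries left out. RBL2 reached 0.021 in shp16+shATR against shp16 with upper-quartile scaling, and −0.052 to 0.025 with libraries left out, and ranged from −0.13 to 0.26 and from −0.15 to 0.25 against shCont. CDKN2C ranged from −0.14 to 0.12 in shp16 against shCont. The CDKN2A share of INK4 changed by −0.147 percentage points in shp16+shATR against shp16 on CPM. With libraries left out, the CCND1 share differed between shp16+shATR and shCont by −1.62 to 2.41, and the CDK4 share by −6.75 to 0.00319 in shp16 against shCont and by −6.08 to 0.67 in shp16+shATR against shCont.

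Groups of 3 libraries cannot reach an exact permutation p under 0.1, and where the libraries of a group share a culture, an effect of a hairpin and a difference between cultures cannot be told apart.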
